A study of Mus musculus with 12 samples.

Results

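The 5 kainate receptor subunit genes (Grik1, Grik2, Grik3, Grik4 and Grik5) and the 4 AMPA receptor subunit genes (Gria1, Gria2, Gria3 and Gria4) were followed in trigeminal ganglia of adult C57Bl6 mice, 9 of the 55416 genes in the files. They were taken by family name, and the family was chosen by the read counts of Grik1, known from earlier results to be lower in knockout ganglia, so the difference of Grik1 between knockout and control is a description here, and its calls enter only as counts beside the share of all genes called. The trigeminal ganglion is the sensory ganglion of the face, and the series removed Prdm12, a transcriptional regulator needed for nociceptor development, in adult animals. Polyadenylated RNA of 12 ganglion samples collected 1 month after injection was sequenced, with 13207526 to 24178970 counted reads per library.

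The 6 inducible knockouts (iKO 1 to 6) carried Rosa26Cre ERT2 and were Fl/Fl at Prdm12, and all received tamoxifen, the ligand that sends the CreERT2 recombinase to the nucleus. Controls 1 to 4 also received tamoxifen. Control 1 was Rosa26Cre ERT2 with Fl/+, controls 2 and 3 lacked Cre and were Fl/+, and control 4 was Rosa26Cre ERT2 with no floxed allele. Controls 5 and 6 were Rosa26Cre ERT2 with Fl/Fl, as the iKO animals, but were given corn oil. The Rosa26 locus is active in nearly all cell types, so recombination was not restricted to neurons, and control 1 could lose 1 Prdm12 allele. Females were iKO 1, 2 and 3 and controls 1 and 2, and the other 7 animals were male. The labels do not say whether tissue was pooled, so the p-values measure the spread between these samples. Prdm12 itself checked the labels, at 106 ± 28.4 CPM in control ganglia and 16.8 ± 1.97 in iKO (mean ± SD, n = 6 each). The ranges, 56.9 to 133 and 13.2 to 19.2 CPM, did not overlap. The lowest control was control 6, an animal given corn oil. CPM is the count scaled to the library total after TMM scaling, a correction for library composition.

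Kainate and AMPA receptors are cation channels opened by glutamate, each built from 4 subunits around a pore. GRIK1, GRIK2 and GRIK3 form channels by themselves, whereas GRIK4 and GRIK5 bind agonist with high affinity but reach the surface as functional channels only in company with the former. Sensory ganglion neurons are known for kainate receptors rich in GRIK1, mainly in small-diameter neurons. AMPA receptors carry fast excitatory transmission, and GRIA2 lowers their calcium permeability after its transcript is edited at the Q/R site. That site is a glutamine codon in the pore loop, which ADAR enzymes can recode to arginine in the transcripts of Gria2, Grik1 and Grik2.

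The genes are alike in sequence at that codon. The coding strand around it, 63 bases from the GENCODE M21 transcripts of GRCm38, is shown for the genes that the results turn on, so that the shared pore loop and the edited codon can be compared between members. Capitals mark the Q/R codon as the genome encodes it.
Grik1: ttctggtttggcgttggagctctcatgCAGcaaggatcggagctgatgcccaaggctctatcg
Grik2: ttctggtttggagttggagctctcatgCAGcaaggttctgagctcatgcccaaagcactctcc
Grik5: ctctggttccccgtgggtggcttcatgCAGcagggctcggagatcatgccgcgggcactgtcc
Gria1: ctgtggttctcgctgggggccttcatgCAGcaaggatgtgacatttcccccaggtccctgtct
Gria2: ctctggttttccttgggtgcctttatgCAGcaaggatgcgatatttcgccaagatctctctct
Gria3: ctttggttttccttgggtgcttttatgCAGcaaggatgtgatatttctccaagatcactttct
Gria4: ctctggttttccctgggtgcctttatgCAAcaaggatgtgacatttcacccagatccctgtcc
The codon was number 636 of the longest Grik1 reading frame, 621 of Grik2, 607 of Gria2 and 608 of Gria4. Gria4 was the one member of the 9 with CAA there, also a glutamine codon, and the other 8 had CAG. Grik1 and Grik2 differed at 8 of the 63 bases, Gria2 and Gria3 at 6. Over the whole coding sequence, Grik1 was nearest to Grik2 with 73.4% identical bases, and of the 36 pairs Gria3 and Gria4 were the most alike at 74.1%. Gene counts hold no base calls, so they do not show how much of the Grik1, Grik2 or Gria2 transcript was edited.

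Of the kainate subunits, Grik1 (ENSMUSG00000022935) was the member with separate groups. Its level was 196, 169, 200, 202, 209 and 158 CPM in controls 1 to 6. In iKO 1 to 6 it was 128, 124, 116, 136, 108 and 120 CPM. The lowest control, control 6 at 158 CPM, lay above the highest knockout, iKO 4 at 136 CPM. The means were 189 ± 20.5 CPM in control ganglia and 122 ± 9.89 in iKO (SD, n = 6 each), so iKO ganglia held 64.5% of the control level. The log2 fold change was -0.63 ± 0.079 (SE). In bulk tissue, fewer cells of a type and less RNA per cell cannot be told apart. In edgeR 1 of the 9 members, Grik1, had an adjusted p under 0.05 on the lower side, where 0.204% of the 16637 genes tested did, and in either direction 0.379% did. The same member was the 1 of 9 whose groups did not overlap with iKO lower, against 0.523% of all genes. Among the 7 males alone the count was 0 of 9, with Grik1 at -0.66 ± 0.117. Nothing is read from these counts, since this contrast chose the family.

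**Figure D1:**
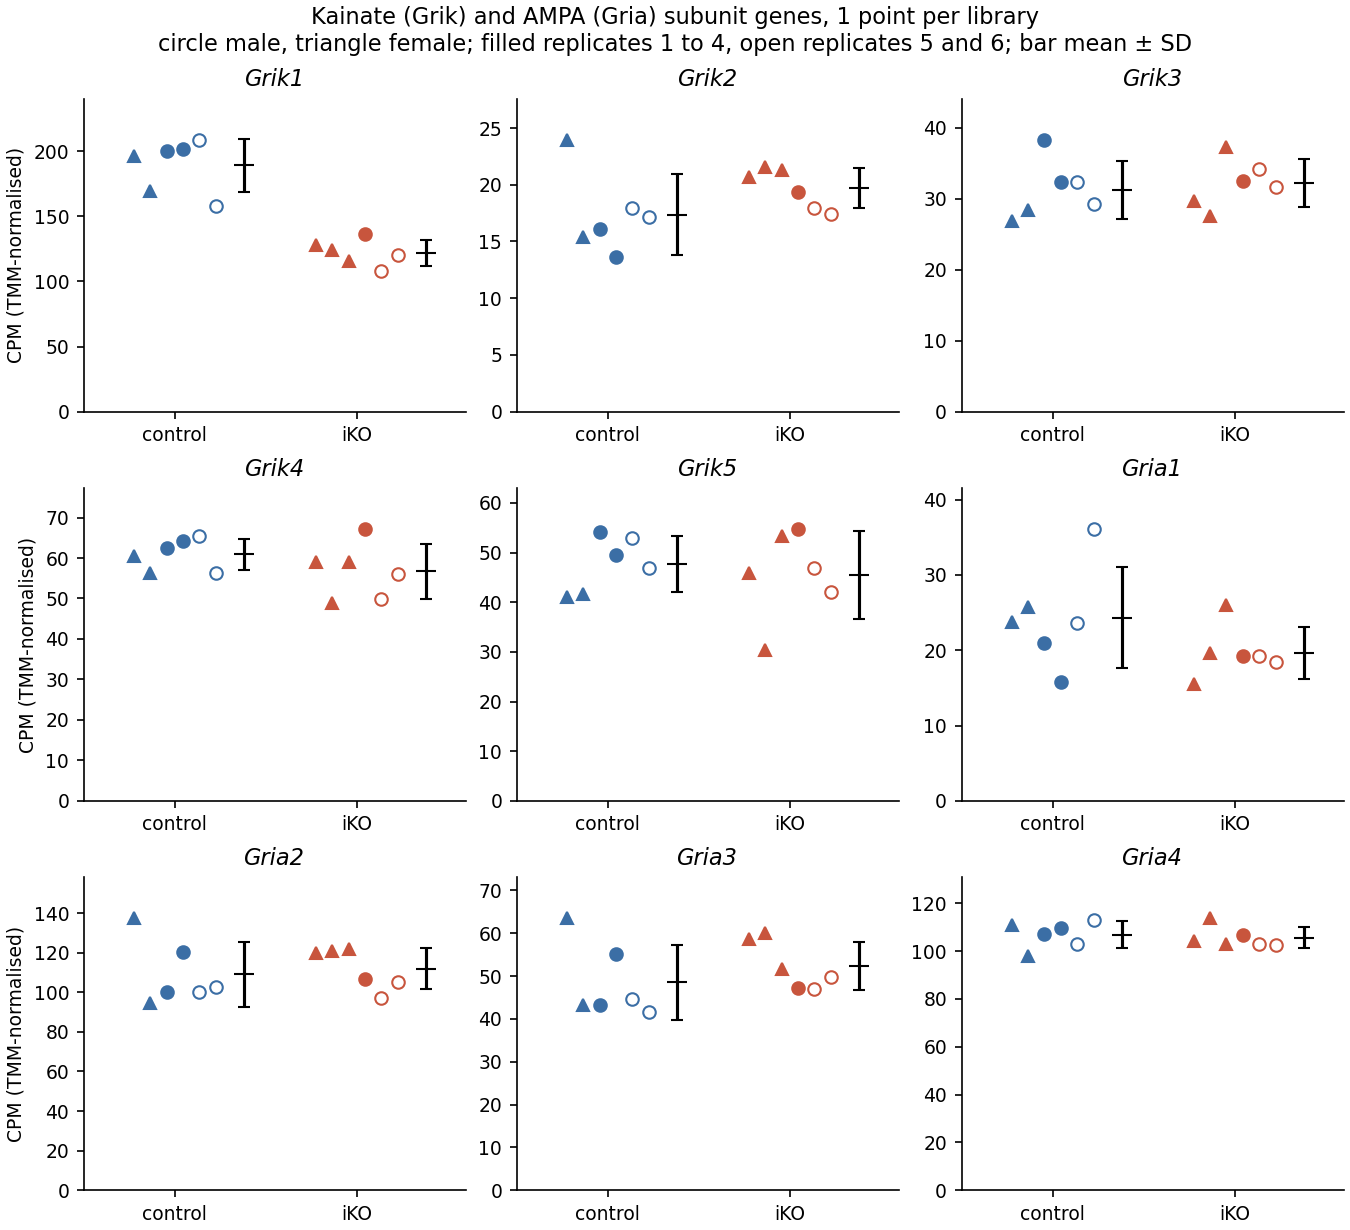
TMM-normalised CPM (vertical axis, from 0) of each of the 9 subunit genes in the 6 control and 6 iKO libraries, 1 point per library, with the mean and SD as a bar. Grik1 alone of the 9 has no overlap between the groups, with controls from 158 to 209 CPM and iKO from 108 to 136 CPM.

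Grik2, the other kainate subunit known to be edited, was at 24, 15.4, 16.1, 13.6, 17.9 and 17.1 CPM in controls 1 to 6. In iKO 1 to 6 it was at 20.7, 21.5, 21.3, 19.4, 18.0 and 17.4 CPM. All 6 iKO libraries lay above the control median of 16.6 CPM, but control 1 lay above all of them. The log2 fold change was 0.15 ± 0.100 with a 95% interval of -0.07 to 0.36, and did not pass the test (edgeR quasi-likelihood, adjusted p = 0.640). Grik3, which forms kainate channels of low glutamate sensitivity, was at 31.3 ± 4.12 CPM in control ganglia and 32.2 ± 3.40 in iKO. Its fold change of 0.07 ± 0.086 (interval -0.11 to 0.26) had an edgeR adjusted p of 0.807.

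The high-affinity partners overlapped between the groups. Grik4 stood at 60.9 ± 3.90 CPM in control ganglia and 56.7 ± 6.80 in iKO. Its log2 fold change was -0.09 ± 0.075 (interval -0.25 to 0.07, edgeR adjusted p = 0.711). Grik5 stood at 47.7 ± 5.57 CPM in control ganglia and 45.5 ± 8.87 in iKO. Its log2 fold change was -0.02 ± 0.115 (interval -0.27 to 0.23, edgeR adjusted p = 0.962). The lowest Grik5 value of all, 30.3 CPM, was in iKO 2, which also had the lowest Grik4 value at 48.8 CPM. Summed over Grik2, Grik3, Grik4 and Grik5, controls held 157 ± 11.5 CPM and iKO 154 ± 16.9. The lower level of Grik1 therefore stood beside partner genes whose summed level differed by less than the spread between libraries.

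Among the AMPA subunits, Gria4 had the smallest standard error of the 9 members. It ran from 97.8 to 113 CPM in controls and from 102 to 114 CPM in iKO, with means of 107 ± 5.63 and 106 ± 4.30 CPM. Its log2 fold change of -0.02 ± 0.046 had an interval of -0.12 to 0.08 (edgeR adjusted p = 0.927). Gria2, the subunit that limits calcium entry, was at 109 ± 16.4 CPM in control ganglia and 112 ± 10.2 in iKO, with a fold change on the log2 scale of 0.00 ± 0.081 (interval -0.17 to 0.18, edgeR adjusted p = 0.994). Gria3, carried on the X chromosome, was at 48.6 ± 8.77 and 52.4 ± 5.71 CPM, with a fold change of 0.07 ± 0.092 (interval -0.13 to 0.27, edgeR adjusted p = 0.835). The sum over the 4 AMPA genes was 289 ± 27.2 CPM in control ganglia and 290 ± 18.2 in iKO.

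Gria1 had the widest interval of the 9 members. It was at 23.7, 25.8, 21.0, 15.8, 23.6 and 36.1 CPM in controls 1 to 6 and at 15.5, 19.6, 26.0, 19.3, 19.2 and 18.5 CPM in iKO 1 to 6. The groups overlapped, and control 6 stood above the other 11 libraries. The log2 fold change was -0.32 ± 0.174 (interval -0.70 to 0.06, edgeR adjusted p = 0.544), and -0.17 ± 0.128 without control 6 (adjusted p = 0.701).

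The Gria1 level moved with markers of central nervous system (CNS) glia, cells of the brain and brainstem rather than the ganglion. The 10 markers listed (Gfap, an astrocyte filament, Mog, a central myelin protein, and 8 more) summed to 119 to 2414 CPM in controls and 131 to 807 CPM in iKO. The fold change was below 0 for all 10, none passed the test in edgeR, and Aldh1l1 alone had an unadjusted p under 0.05. Mog ran from 0.840 to 79.1 CPM in controls and from 1.26 to 24.8 CPM in iKO. Gfap can also be made by satellite glia and Schwann cells of the ganglion. Control 6 had both the highest glia sum, 2414 CPM, and the highest Gria1 level. Control 4 and iKO 1 had the lowest sums of their groups, 119 and 131 CPM, and the lowest Gria1 levels. Over the 12 libraries, log2(CPM + 1) of Gria1 and of the glia sum had a Pearson r of 0.887 (permutation p = 0.00013, two-sided) and a Spearman rho of 0.832 (permutation p = 0.00143). Adjusted over the 9 members the p-values were 0.00117 and 0.0129. The relation held without the 2 libraries farthest from the median glia sum, control 4 and iKO 1 (r = 0.813), among the 6 controls (r = 0.948), among the 6 iKO libraries (r = 0.721) and among the 7 males (r = 0.850). It was examined after the values were seen. For the other 8 members the pooled r lay between -0.54 and 0.05, with adjusted p-values of 0.331 or more. Within the groups of 6 their r ran from -0.694 (Grik1) to 0.417 (Grik2) in controls and from -0.682 (Gria3) to 0.746 (Grik3) in iKO, where Grik3 thus reached the value of Gria1. Grik3 had the opposite sign in controls (r = -0.571), and Grik1 was at -0.664 in iKO. The 2 lowest controls for Grik1, 6 and 2, were those with the highest glia sums, 2414 and 1339 CPM. The part of the glia markers in the fold change of any member was not tested.

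**Figure D2:**
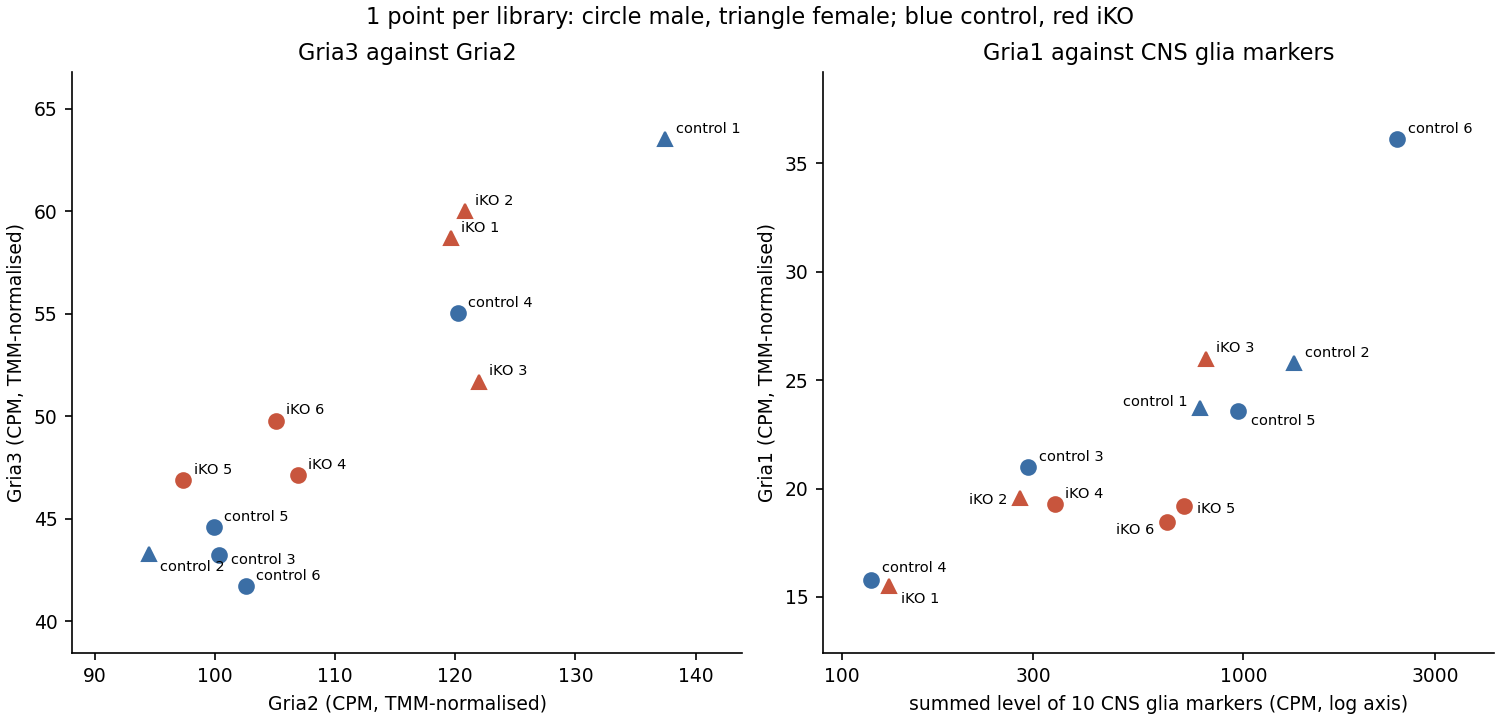
Left, the level of Gria3 against that of Gria2, and right, the level of Gria1 against the summed level of 10 CNS glia markers on a log axis, all in TMM-normalised CPM with 1 point per library. Gria3 is higher in the 5 libraries above the gap in Gria2 than in the other 7, and Gria1 is highest, at 36.1 CPM, in control 6, where the glia sum is 2414 CPM.

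Per length of annotated exon, Grik1 was the most abundant member in control ganglia at 28.2 ± 3.05 CPM per kb. Gria4 followed at 17.0 ± 0.893, Grik4 at 10.2 ± 0.654, Grik5 at 9.23 ± 1.08 and Gria2 at 7.02 ± 1.05 CPM per kb. Gria3 stood at 4.93 ± 0.890, Gria1 at 4.03 ± 1.11, Grik3 at 3.48 ± 0.459 and Grik2 at 1.31 ± 0.269 CPM per kb. Of neighbours in this order, 3 pairs did not overlap in the control libraries, namely Grik1 over Gria4 (lowest 23.5 against highest 17.9 CPM per kb), Gria4 over Grik4, and Grik3 over Grik2. The ranges of the other 5 pairs overlapped. Levels were also divided by the length of the transcript with the longest reading frame. Grik1 was then first at 64.3 CPM per kb, but Gria2 was second at 27.1 and Gria4 came next at 20.5. That length was 2.94 kb for Grik1 against 6.72 kb of annotated exon, and 5.21 against 6.3 kb for Gria4. The order thus depended on the transcript length assumed. Since Grik1 got a much shorter length, its first place there is no separate check.

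In iKO ganglia, Grik1 stood at 18.2 ± 1.47 CPM per kb and Gria4 at 16.7 ± 0.683. The ratio of Grik1 to Gria4 per kb was 1.67 ± 0.198 in controls (1.31 to 1.90) and 1.08 ± 0.080 in iKO (0.982 to 1.20). Grik1 made up 53.7 ± 1.90% of the summed per-kb level of the 5 kainate genes in controls and 43.8 ± 3.36% in iKO. Gria4 made up 51.6 ± 2.14% of the AMPA sum in controls and 51.6 ± 1.90% in iKO. The mix of kainate transcripts thus differed between the groups through Grik1, and the share of Gria4 differed by less than the spread between libraries. These shares hold the same Grik1 values that chose the family and are a description.

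**Figure D3:**
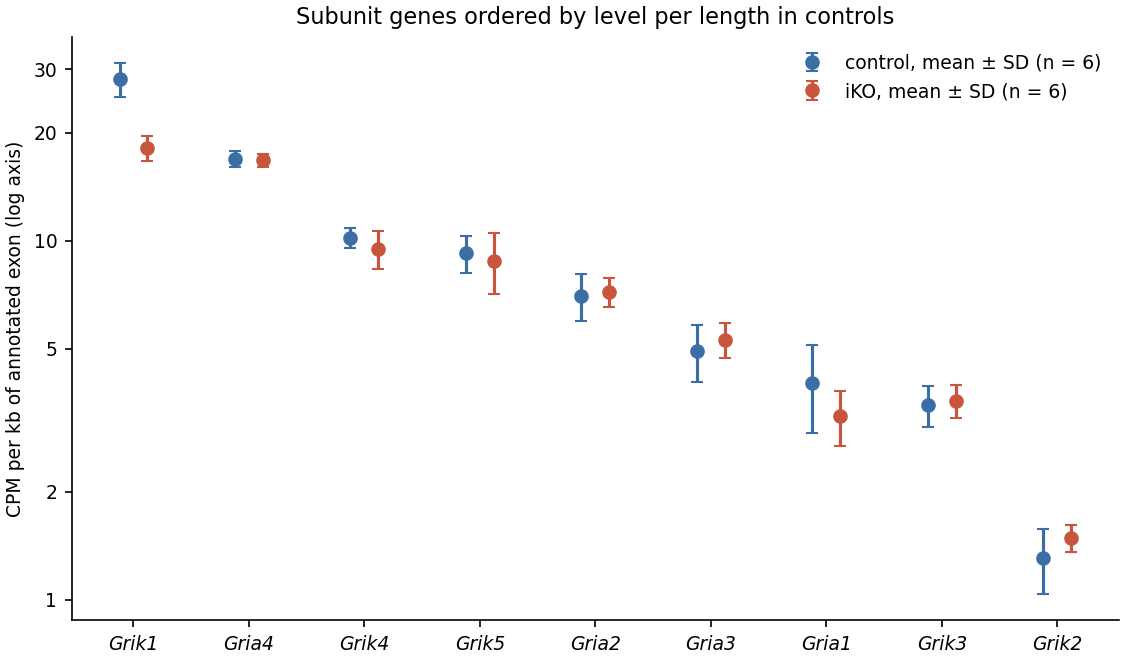
Mean TMM-normalised CPM per kb of annotated exon (vertical axis, log scale) with SD over 6 libraries, for the 9 subunit genes in order of their control level. Grik1 is first in both groups, at 28.2 CPM per kb in controls and 18.2 in iKO, next to Gria4 at 17.0 and 16.7.

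The study holds 2 kinds of knockout comparison that share no library. In replicates 1 to 4 all 8 animals received tamoxifen and differed in genotype, and in replicates 5 and 6 all 4 were male Fl/Fl carriers of Cre and differed in the injection. Grik1 went from 192 ± 15.3 to 126 ± 8.58 CPM in replicates 1 to 4 (n = 4 each). Its log2 fold change there was -0.57 ± 0.089. In replicates 5 and 6 it went from 184 ± 36.1 to 114 ± 8.97 CPM (n = 2 each), or -0.68 ± 0.121 on the log2 scale. The difference between the sets, tested as such, was -0.11 ± 0.15 (edgeR adjusted p = 0.9999), and without control 5 it turned to 0.09. Grik1 was lower in iKO in both sets, and the interval of the difference, -0.44 to 0.22, spans changes in either direction.

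For the other members, the difference between the sets was largest for Gria1, at -0.51 ± 0.303 (interval -1.18 to 0.15, edgeR adjusted p = 0.9999). Its log2 fold change was -0.15 ± 0.180 in replicates 1 to 4 and -0.67 ± 0.244 in replicates 5 and 6, where control 6 with its high glia markers is 1 of 2 controls. Without control 6 the latter was -0.33 ± 0.260. No member passed the test of the difference between sets, and neither did any of the 16637 genes in edgeR (0%), with 568 genes and 0 members at an unadjusted p under 0.05 and 5 genes called by DESeq2. In replicates 1 to 4, 1 of 9 members (Grik1) was called, on the lower side, against 0.0601% of genes (0.0541% higher, 0.114% in either direction), and 0 of 9 when any 1 library other than control 5 or control 6 was left out. In replicates 5 and 6 edgeR called 0 of 9 against 0.00601% of genes, with 2 members (Grik1 and Gria1) and 1310 genes at an unadjusted p under 0.05, while DESeq2 called 1 member and 69 genes. Without control 6, edgeR called 1 member there, Grik1 (log2 fold change -0.88).

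**Figure D4:**
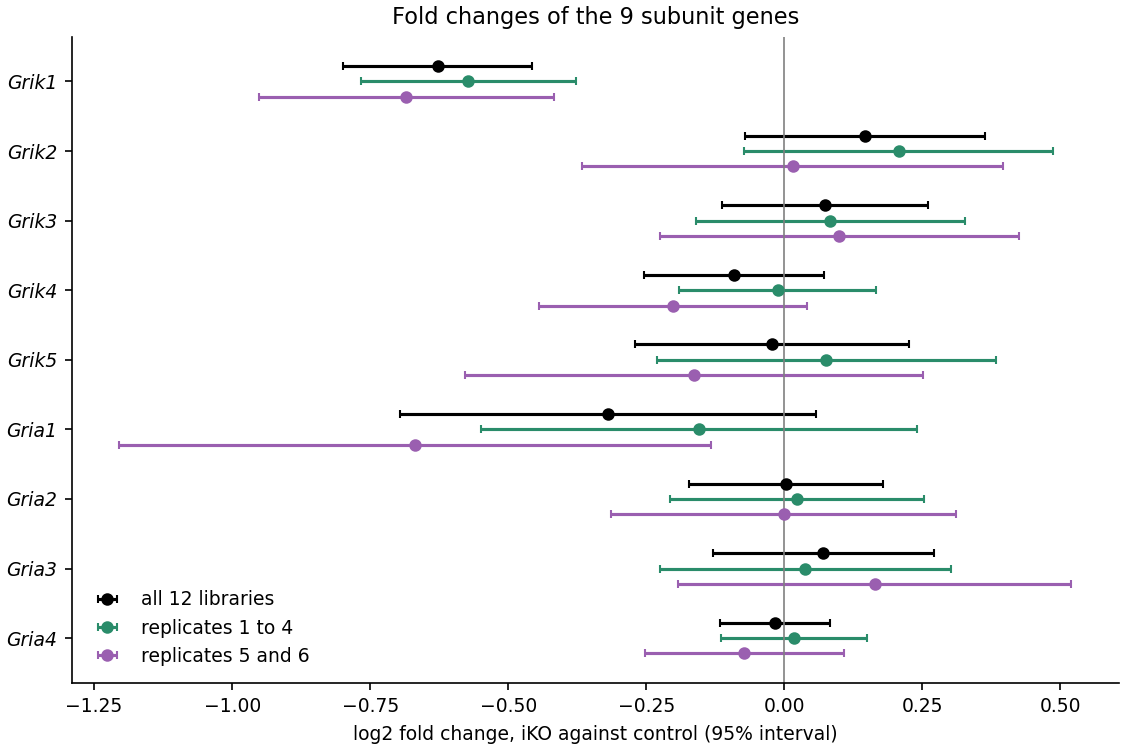
Log2 fold change of iKO against control for each subunit gene (horizontal axis) with its 95% interval, in all 12 libraries, in replicates 1 to 4 and in replicates 5 and 6. Grik1 is at -0.63, -0.57 and -0.68, values that chose the family and carry no test, and the intervals of the other members include 0 except that of Gria1 in replicates 5 and 6.

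The sex of the animals was independent of how the family was chosen. Adjusted for group, 3 members were lower in males at an unadjusted p under 0.05, namely Grik2, Gria2 and Gria3, and none of the 9 passed after adjustment, where 0.0781% of genes did on the lower side and 0.108% in either direction (edgeR), and 1693 genes had an unadjusted p under 0.05. Grik2 measured 20.6 ± 3.16 CPM in the 5 females and 17.1 ± 1.81 CPM in the 7 males, a log2 difference of -0.24 ± 0.101 (edgeR adjusted p = 0.469). Gria3 measured 55.4 ± 8.04 CPM in females and 46.9 ± 4.48 CPM in males, a log2 difference of -0.23 ± 0.093 (edgeR adjusted p = 0.469). Gria2 differed by -0.18 ± 0.082 (edgeR adjusted p = 0.482). The female and male ranges overlapped for all 3 genes. All 5 females belonged to replicates 1 to 4, and every animal of replicates 5 and 6 was male. The fit had no term for replicate set, so sex and set cannot be fully told apart in these differences. Grik1 differed by 0.03 ± 0.080 between the sexes, with an interval of -0.15 to 0.20. The effect of the knockout on Grik1 differed between males and females by -0.08 ± 0.165 (interval -0.45 to 0.28, edgeR adjusted p = 1). No gene passed that test (0%), with 318 genes and 0 members at an unadjusted p under 0.05, and DESeq2 called 0 genes.

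Gria2 and Gria3 were high and low in the same libraries. Controls 1 and 4 and iKO 1, 2 and 3 held 120 to 137 CPM of Gria2 and 51.7 to 63.5 CPM of Gria3. The other 7 libraries held 94.6 to 107 CPM of Gria2 and 41.7 to 49.8 CPM of Gria3. The 5 higher libraries belong to both groups, 4 of them are female, and all are in replicates 1 to 4. Over the 12 libraries Pearson's r was 0.909 (permutation p = 7e-05, adjusted over the 36 member pairs 0.00252) and Spearman's rho 0.825 (permutation p = 0.00167, adjusted 0.0301). Without control 1 and iKO 3, the 2 libraries farthest from the median of Gria2, r was 0.906. It was 0.966 among the 6 controls, 0.807 among the 6 iKO libraries and 0.786 among the 7 males, of which control 4 alone is one of the 5 higher libraries.

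Of the other kainate genes, Grik3 and Grik4 had the highest correlations with Grik5 across the 12 libraries. With Grik3 its Pearson r was 0.732 (permutation p = 0.00473, adjusted 0.0619) and its Spearman rho 0.839 (permutation p = 0.00115, adjusted 0.0301). Without control 1 and control 3, the 2 libraries farthest from the median of Grik3, r was 0.712. Within groups r was 0.906 among controls and 0.790 among iKO, and among the 7 males it was 0.462. With Grik4, r was 0.733 (permutation p = 0.00516, adjusted 0.0619) and rho 0.692 (adjusted 0.154). With Grik1, r was 0.243, and with Grik2 it was -0.314 (adjusted permutation p = 0.781 and 0.719). Of these 4 relations of Grik5, the rho with Grik3 alone passed the adjustment.

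The genes whose pattern over the 12 libraries was nearest to that of Grik1 were found by the root mean square difference of centred log2 CPM, over the 15508 genes whose mean reached 1 CPM. Nearest was Chrna7, the alpha7 nicotinic acetylcholine receptor subunit, with a distance of 0.0954, where the median gene had 0.375. Chrna7 was at 57.7 ± 4.30 CPM in control ganglia and 40.2 ± 4.11 in iKO. Next were A3galt2, a glycosphingolipid galactosyltransferase (0.107), Wnt2b, a secreted Wnt ligand (0.109), and the predicted genes Gm16364 (0.11) and Gm13425 (0.127). Their log2 fold changes ran from -0.67 to -0.49, beside -0.63 for Grik1, and, having been chosen for likeness to it, get no test here.

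Glutamate genes outside the family did not pass the test in iKO against control. Of 72 listed in 6 groups, 66 were tested, 24 had a higher and 42 a lower fold change, and their median was -0.05 against 0.00 for all genes, of which 49.5% were lower. Called by edgeR were 0 of the 66, and 11 had an unadjusted p under 0.05, as did 1814 of all 16637 genes. The 20 auxiliary subunits and assembly factors, which set the gating and surface delivery of both receptor types, had 5 higher and 15 lower values and a median of -0.12. Nearest to the threshold was Frrs1l, an assembly factor of AMPA receptors, at 62.4 ± 1.88 CPM in control ganglia (60.1 to 64.6) and 69.9 ± 2.42 in iKO (67.1 to 72.5). Its groups did not overlap, as in 0.679% of all genes with iKO higher, and its log2 fold change was 0.16 ± 0.037 (edgeR adjusted p = 0.0974). Gsg1l, an auxiliary subunit that slows AMPA receptor recovery, went from 18.8 ± 4.30 to 12.8 ± 2.72 CPM (log2 fold change -0.52 ± 0.172, edgeR adjusted p = 0.267). Neto1 and Neto2, the auxiliary subunits of kainate receptors, had log2 fold changes of -0.08 ± 0.085 and 0.16 ± 0.055 (edgeR adjusted p = 0.771 and 0.312).

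Scaffold and trafficking partners, which anchor the receptors, had 7 higher and 7 lower values among 14 tested, with a median of 0.01. Nptx1, a secreted pentraxin that gathers AMPA receptors, stood at -0.22 ± 0.076 (edgeR adjusted p = 0.287) and Sorcs3, a sorting receptor, at 0.16 ± 0.080 (adjusted p = 0.496). Of the 3 editing enzyme genes, Adarb1, which edits the Q/R codon of Gria2, was at 153 ± 8.46 CPM in control ganglia and 159 ± 8.88 in iKO (log2 fold change 0.05 ± 0.051, edgeR adjusted p = 0.773). Adar stood at -0.08 ± 0.069 (adjusted p = 0.723). The level of the enzyme genes differed by less than the spread between libraries.

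Of the 6 NMDA and delta subunits tested, 3 were higher and 3 lower, the lowest p-values being those of Grin2d (-0.53 ± 0.211, edgeR adjusted p = 0.367) and Grin2c (-0.52 ± 0.287, adjusted p = 0.548), whose highest libraries held 5.33 and 3.41 CPM. Of 7 metabotropic receptors, 5 were lower and 2 higher. Grm8, a presynaptic receptor, was one of the higher, at 0.13 ± 0.050 (edgeR adjusted p = 0.363). Of 16 transport and metabolism genes, 5 were higher and 11 lower. The neuronal transporter Slc1a1 stood at 0.20 ± 0.087 and the glial transporter Slc1a2 at -1.0 ± 0.434 (edgeR adjusted p = 0.423 for both). Slc1a2 was at 61.9 ± 37.8 CPM in control ganglia and 31.8 ± 20.4 in iKO, and its highest level, 127 CPM, was in control 6, the library with the highest CNS glia sum. The vesicular transporter Slc17a6, which loads glutamate into vesicles of sensory neurons, was at 296 ± 20.1 CPM in control ganglia and 293 ± 19.3 in iKO.

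**Figure D5:**
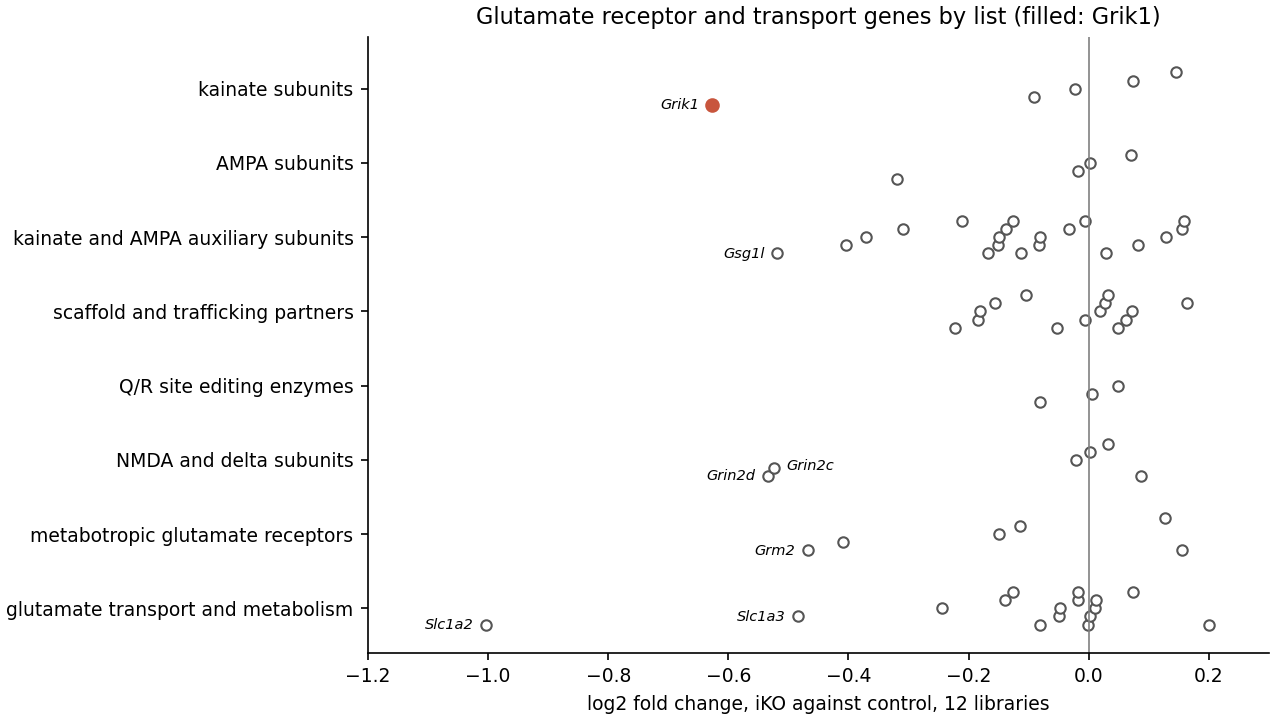
Log2 fold change of iKO against control over 12 libraries (horizontal axis) for tested genes of the 2 receptor families and the 6 other glutamate lists, 1 point per gene, with Grik1 filled. Genes shown at or below -0.45 are named, and apart from Grik1 none of the points had an adjusted p under 0.05.

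Markers of neurons as a whole overlapped between the groups, and no list of a neuron type was separate by both sum and centred mean. Peptidergic nociceptor markers were separate by centred mean only, and CNS neuron markers by sum only. The other neuron type lists overlapped by both. The 10 pan-neuronal markers summed to 7402 to 9360 CPM in controls and 7670 to 9575 CPM in iKO, with 0 of 10 called in edgeR and 2, Elavl3 and Rbfox3 (log2 fold changes -0.24 and -0.23), at an unadjusted p under 0.05. The 12 markers of nonpeptidergic Mrgprd-type nociceptors, a class of small neurons, summed to 1094 to 1362 CPM in controls and 1073 to 1323 CPM in iKO. Of these 12, Agtr1a was called higher (log2 fold change 0.42 ± 0.071) and Wnt2b lower (-0.52 ± 0.091). Wnt2b was also among the genes chosen above for likeness to Grik1, so its call is a description only. The defining marker Mrgprd went from 91.0 ± 11.4 to 78.8 ± 8.95 CPM (log2 fold change -0.21 ± 0.097, edgeR adjusted p = 0.460). The 8 markers of peptidergic nociceptors were lower in 7 of 8 cases, with a median log2 fold change of -0.22 and 2 called lower, among them Smr2, and they summed to 1326 to 1614 CPM in controls and 1131 to 1429 CPM in iKO. Their mean log2 level, centred per gene, ran from 0.013 to 0.277 in controls and from -0.305 to -0.0063 in iKO, without overlap, as for Grik1. The 4 markers of cold-sensing and C-LTMR neurons were all below 0 (median -0.32, 0 called in edgeR, 3 at an unadjusted p under 0.05, namely Foxp2, Trpm8 and Th) and summed to 188 to 287 CPM in controls and 151 to 228 CPM in iKO. Markers of CNS neurons, 3 of 8 tested, summed to 130 to 161 CPM in controls and 94.8 to 127 CPM in iKO. These sums did not overlap, but most of them was Camk2a alone, at 129 ± 14.2 CPM in controls and 103 ± 10.4 in iKO. The centred mean log2 level of the 3 tested overlapped, at -0.022 to 0.249 in controls and -0.349 to 0.097 in iKO. Large myelinated neuron markers (3570 to 4012 against 3776 to 4357 CPM) and itch neuron markers (62.6 to 84.3 against 66.7 to 93.7 CPM, Cysltr2 called higher) overlapped. The part of these neuron types in the values of Grik1 was not tested. Other tissue was present to an unequal degree, with skeletal muscle markers at 67 to 239 CPM in controls and up to 1017 CPM in iKO 5. Fibroblast and meningeal markers were lower in iKO (3 of 8 called, the transporters Slc13a4, Slc22a6 and Slc22a8), at 546 to 1265 CPM against 913 to 2257 CPM, and their part in the values of Grik1 was not tested.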

How the data were processed

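Counts of 12 trigeminal ganglion RNA-seq libraries, 6 iKO and 6 control, were grouped by the labels. TruSeq libraries of polyadenylated RNA without strand information were prepared, per the labels' protocols. Per the submitters' processing notes, featureCounts 2.0.1, STAR 2.7.8a and bcl2fastq 2.20.0.422 were used with the genome GRCm39. The authors deposited raw read counts for each gene and library, without normalization. Annotation release and counting options: not given in the sources used here. Reads shared by similar members could thus be split or dropped.

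Symbols, exon lengths and sequences came from GRCm38 tables (GENCODE M21), so no coordinate is given. Of 55416 identifiers 52083 had a symbol, and those without held 0.274% of counts. Of 189 list entries, 2 matched no gene. No opposite-strand gene shared exons with a member. On the same strand, short RNA genes shared 59 exon bases with Grik4, 111 with Gria2, 85 with Gria3 and 19 with Gria4. Members had 227 to 3474 reads in each library, and a count of 0 would allow 3 reads. Libraries of 1 group differed by 7.77 to 28.8 in chi-square per degree of freedom over 30 pairs, so none counts as a duplicate.

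Counts were tested with edgeR 4.0.16 (R 4.3.3): filterByExpr by group (16637 genes, all 9 members), TMM, quasi-likelihood test with sex as covariate, Benjamini-Hochberg adjustment over all genes, threshold 0.05. The replicate sets were contrasts in 1 fit of all 12 libraries. Correlations used log2(CPM + 1) and 100000 permutations. The tests were tried on simulated counts. For iKO against control, 82% of genes changed 2-fold were called, and 54% of those changed 1.5-fold. Smaller changes were not simulated. In replicates 5 and 6 these shares were 65% and 18%. For the difference between sets they were 40% and 3%, and for that between sexes 47% and 16%. Alternatives were RLE scaling, other filters, DESeq2 1.42.0, limma-voom (limma 3.58.1), other covariates, subsets and leaving out each library. The members, lists and tests were chosen with earlier results of these data known. All members are named, with Prdm12, the 5 genes nearest to Grik1 and, from each glutamate list, the 2 with the smallest p (others named were chosen after seeing values, and some genes are not reported or drawn here). Neither Klhl17 nor Tafa4 was matched.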

Additional observations from a re-analysis of the deposited data

How the results depend on the processing

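For iKO against control, Grik1 kept its direction in all 23 alternatives, between -0.67 and -0.57 on the log2 scale. The count of 1 member called became 0 among males only, where 0 members and 1 gene were called, and with a replicate block, where 0 members and 15 genes were called and Grik1 stood at -0.60. Same-numbered libraries correlated at -0.446 to 0.316 in their deviations from the group means and none was nearest to its own number, so the numbers were not treated as pairs. The 63 genes called became 138 with no filter, 332 with DESeq2, 12 in replicates 1 to 4 fitted alone, 23 without control 6, iKO 3 and iKO 6 and 23 to 88 leaving out 1 library each (23 without control 2, 88 without control 6).

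The members close to 0 changed sign. Grik5 was at 0.078 and Gria4 at 0.022 in replicates 1 to 4 alone. Without control 6, iKO 3 and iKO 6, Gria2 was at -0.012 and Gria4 at 0.017. Among males Grik3 was at -0.012 and Gria2 at -0.038, and with the replicate block Gria2 was at -0.0046. Leaving out 1 library each gave -0.097 to 0.042 for Grik5, -0.085 to 0.078 for Gria2 and -0.014 to 0.15 for Gria3.

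In replicates 1 to 4 the 19 genes called became 621 with no filter, 137 with DESeq2, 3 with the replicate block (0 members) and 2 to 18 leaving out 1 library each (0 to 1 members). In replicates 5 and 6 the 1 gene called became 2 with RLE factors, 1014 with no filter (2 members), 69 with DESeq2 (1 member) and 1 to 26 leaving out 1 library each (0 to 1 members). For the difference between sets, 0 became 578 with no filter, 5 with DESeq2 and 0 to 15 leaving out 1 library each, with Grik1 at -0.31 to 0.091. The sex difference of the Grik1 effect ran from -0.19 to 0.0057. For male against female, 18 became 33 with no filter, 50 with DESeq2 and 11 to 15 leaving out 1 library each. The cause of these shifts was not tested. Grik2 had the fewest reads, 227 to 503 per library, so counting error weighs most on its values. Leaving out 1 of 2 libraries in replicates 5 and 6 assumes that the lone library varies like the others.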
